A study of Mus musculus with 9 samples.

Results

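The transcripts described here are the long noncoding RNA (lncRNA) entries that overlap exons of a protein-coding gene on the same strand. They were taken from a deposited table of lncRNA transcripts as every entry whose relationship was given as exon sense-overlapping and whose mean level over the 9 libraries was at least 0.5 FPKM (fragments normalised to transcript length and library size), with loci on chrM and chrY left out. This gave 1170 members of the 31549 transcripts in the table. Another 8 transcripts that met the level and the relationship lay on chrM or chrY. Of the 3671 sense-overlapping transcripts at any level outside chrM and chrY, 621 were listed at 0 in all 9 libraries. The lowest mean kept was 0.5004 FPKM and the highest mean left out was 0.4979 FPKM.

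RNA-seq had been made from hearts of wild type mice at E18 (embryonic), 3d (neonatal) and 8w (adult), with 3 libraries at each stage and no agent or altered allele named in any group. The cell type label calls the material cardiocytes, a word for heart cells, and does not say whether cells were isolated. Replicates are labelled biological, but separate animals are not stated, so p-values measure the spread between these libraries.

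A coding gene can give rise to many RNAs that share its exons without encoding its full protein. Such RNAs may keep an intron, skip or truncate coding exons, or start inside the gene, and some are degraded by nonsense-mediated decay, the pathway that removes mRNAs with a premature stop codon. In short-read RNA-seq a fragment from a shared exon fits both the noncoding entry and the mRNA, and the quantification has to divide such fragments between them. In the heart, the weeks around birth bring a switch from glucose to fatty acids as fuel, growth of the calcium-handling system and changes in splicing.

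The 4 stretches show where such entries leave the coding sequence they overlap. They were printed because they cross the point where coding bases end and bases outside every annotated coding exon begin, and because the entry passed a test described below. Capitals mark coding bases of the coding gene, and lower case marks bases of the entry outside every annotated coding exon. The latter are called own bases below, and whether other noncoding transcripts share them was not checked. All are RefSeq or Ensembl entries that matched a GENCODE transcript on GRCm38, written 5′ to 3′ on the strand of the gene.
ENSMUST00000168978: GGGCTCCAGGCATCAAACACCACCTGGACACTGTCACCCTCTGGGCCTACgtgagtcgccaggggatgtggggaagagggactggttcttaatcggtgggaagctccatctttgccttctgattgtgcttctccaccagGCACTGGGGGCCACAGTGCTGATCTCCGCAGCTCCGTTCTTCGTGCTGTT
NR_003546: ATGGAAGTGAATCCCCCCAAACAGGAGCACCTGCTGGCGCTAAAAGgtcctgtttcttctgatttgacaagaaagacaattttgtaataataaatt
NR_029460: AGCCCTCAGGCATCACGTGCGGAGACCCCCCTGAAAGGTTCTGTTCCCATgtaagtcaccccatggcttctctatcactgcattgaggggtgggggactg
NR_033586: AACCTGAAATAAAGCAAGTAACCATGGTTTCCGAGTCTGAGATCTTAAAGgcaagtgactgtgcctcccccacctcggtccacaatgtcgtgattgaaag
The first, at chr17:34030685-34030873 on the minus strand, is listed with H2-Ke6, and its 89 own bases are an intron kept between coding exons of Slc39a7, a zinc transporter gene. The second spans chr13:104174955-104178159 on the minus strand and leaves the coding sequence of Trappc13, a gene of the TRAPP vesicle-tethering complex, at a splice junction after base 46. The third, at chr2:29247778-29247877 on the minus strand, and the fourth, at chr17:15403080-15403179 on the plus strand, run from a coding exon straight into the following bases, in Ntng2, which encodes netrin G2, and in Fam120b. The run of own bases goes on for 2721 bases in Ntng2 and for 1268 bases in Fam120b.

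Only 95 of the 1170 members (8.12%) could be matched by identifier to a GENCODE transcript whose length differed by no more than 2%, and the exon layout is described for these alone. Of the 95, 34 were annotated as processed transcripts, 28 as protein coding, 8 as nonsense-mediated decay, 8 as retained intron and 7 as lincRNA. The median share of bases inside an annotated coding exon was 49.6%. In 35 the whole transcript lay inside coding exons and in 29 no base did. Coding sequence was present in 55, and 29 had bases of their own inside an intron of a coding transcript. The match for the entry at Atp2a2, NR_027838, was a nonsense-mediated decay transcript with 92.1% of its bases in coding exons and 448 of its own.

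Members had a median length of 1802.5 bases, from 126 to 18529, and 19 were shorter than 200 bases. Most came from the UCSC known gene set (797), followed by RefSeq (177), the Lei Sun set (96) and Ensembl (56). The host gene was in the coding table for 1124 members, at 1022 different genes, and passed the level needed for a test (mean of at least 1 FPKM) for 1061. For 1109 of the 1124 (98.7%), the deposited locus was identical to that of the host, so entry and gene had been quantified within one locus. The median member had a mean of 2.08 FPKM, 148 members had at least 10 FPKM and 11 had at least 100 FPKM. Per length, the median member stood at 21.9% of its host, and 167 members (14.9%) had a higher mean FPKM than the host.

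The libraries held 10693842 to 14200917 estimated fragments on coding genes and 1083075 to 1502861 on lncRNA transcripts, and members took 1.5% to 2.09% of all of these. Summed cardiomyocyte markers ran from 11170 to 11400 FPKM at E18, from 11590 to 13550 at 3d and from 21140 to 23000 at 8w, with Ttn listed at 0 in every library. Fibroblast, endothelial, smooth muscle, macrophage and erythroid markers were also present (macrophage from 3 of its 4 markers), so the libraries did not hold cardiomyocytes alone. Macrophage markers summed to 8.24 to 11, 8.4 to 17.0 and 29.2 to 37.9 FPKM, erythroid markers to 299.7 to 419.1, 143.2 to 327.8 and 68.5 to 142.2 FPKM, and epicardial markers to 25.0 to 30.5, 15.5 to 19.9 and 6.7 to 9.95 FPKM at the stages in order. Lung epithelial markers reached at most 0.239, 54.0 and 97.2 FPKM and lymphocyte markers at most 0.251. The part of these in the stage differences below was not tested, and fewer cells of a type and less RNA per cell cannot be told apart in such bulk libraries.

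Many members were unstable between replicates of one stage. Under 0.01 FPKM lay 7.86% to 13.7% of members in a library, against 5.04% to 9.8% of the other lncRNA transcripts tested. Among coding genes it was 0.0923% to 0.512%, but these are values per gene, with a mean of at least 1 FPKM rather than 0.5. A total of 308 members (26.3%) lay below 0.01 FPKM in 1 replicate while another replicate of the same stage held at least 1 FPKM, as did 344 of 2837 other lncRNA transcripts (12.1%). Among members under 500 bases this was 110 of 180 (61.1%), and among those of at least 4000 bases 15.6%. It was 40.2% at mean levels of 0.5 to 1 FPKM and 7.43% at 10 FPKM or more.

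**Figure D1:**
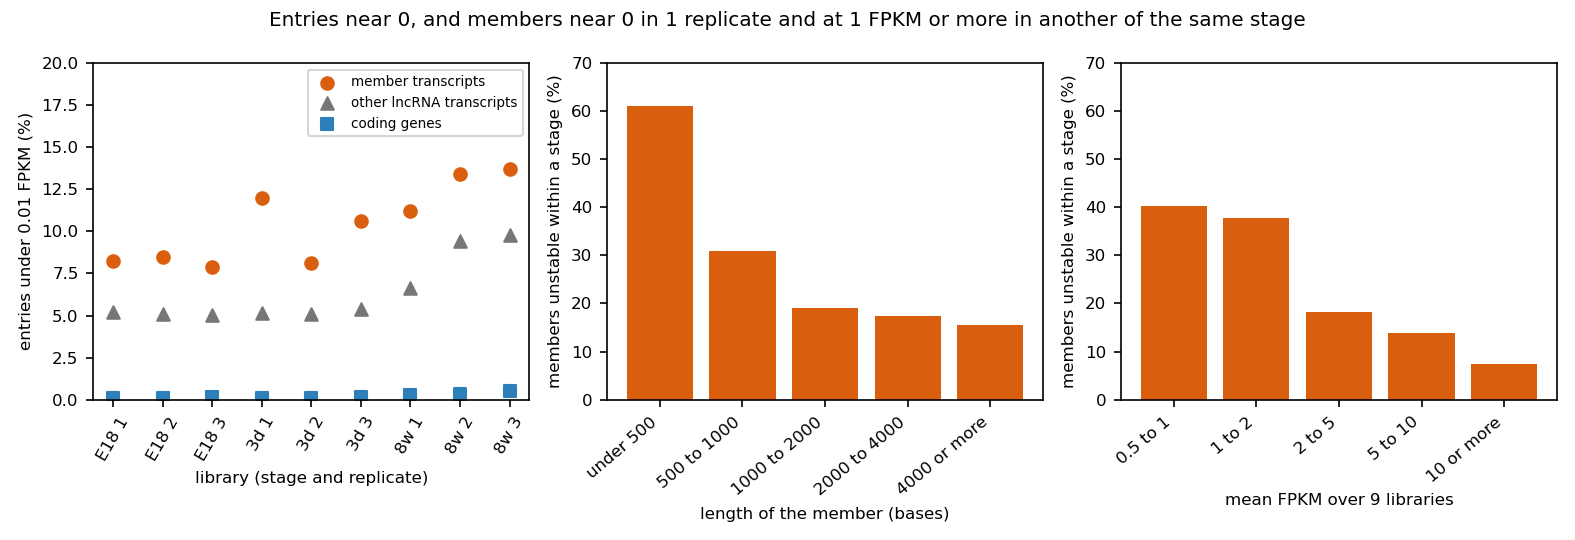
Left, the share of entries under 0.01 FPKM in each library (percent), for members, other lncRNA transcripts and coding genes. Coding genes are values per gene with a mean of at least 1 FPKM, and lncRNAs are transcripts with at least 0.5 FPKM. Middle and right, bars for the share of members near 0 in 1 replicate and at 1 FPKM or more in another of the same stage (percent), by transcript length and by mean FPKM. Members lie above both other classes in every library, and the share is highest for members under 500 bases, at 61.1%.

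The Rpl41 locus, which encodes a very small ribosomal protein, is an example of wide spread between replicates. The 345-base member uc029rju.1 stood at 535.1, 124.7 and 2.21 FPKM in the E18 replicates, under 0.01, 59.5 and 31.4 at 3d, and 69.2, 153.5 and 130.2 at 8w. Rpl41 in the coding table stood at 53.9, 162.6 and 463.6 FPKM at E18, 259.6, 254.5 and 226.5 at 3d, and 80.9, 7.46 and 50.9 at 8w. Within E18 the replicate with the highest member had the lowest gene and the reverse. Member and gene summed to 589.1, 287.3 and 465.8 FPKM at E18, 259.6, 314.0 and 257.9 at 3d, and 150.1, 161.0 and 181.1 at 8w, so the stages overlapped in the member and not between 8w and the others in the sum. The member passed the test in none of the stage comparisons (adjusted p of 0.566 at 3d and 0.755 at 8w, each against E18, and 0.264 for 8w against 3d).

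Both members at BC065397 on chromosome X, NR_033324 of 3243 bases and ENSMUST00000134066 of 3201 bases, matched the same GENCODE transcript. ENSMUST00000134066 stood at 3.21, 2.55 and 3.39 FPKM at E18, and at 3d and 8w no library exceeded 0.0416. NR_033324 stood at under 0.01, 0.744 and under 0.01 FPKM at E18, 2.17, 2.22 and 2.22 at 3d, and 0.63, 1.49 and 1.67 at 8w. One entry was therefore high where the other was low. Taken singly, ENSMUST00000134066 was called lower and NR_033324 higher at 3d than at E18 (log2 difference -1.99 and 1.41), while their sum was 3.21, 3.29 and 3.39 FPKM at E18, 2.22 in each 3d library, and 0.63, 1.49 and 1.67 at 8w. The sum did not overlap between stages and was lower at each later one. The call on NR_033324 was lost under 11 of the alternatives tried.

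**Figure D2:**
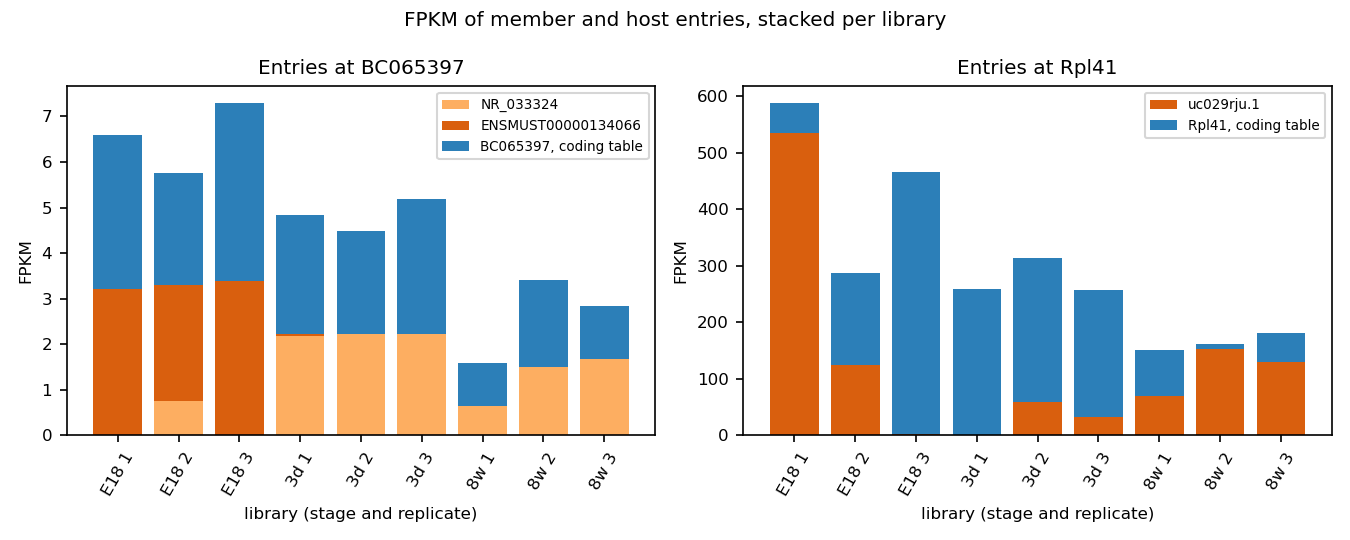
Stacked bars give the FPKM of each entry in each of the 9 libraries (stage and replicate), at BC065397 on the left and Rpl41 on the right. At BC065397 the lncRNA signal sits in ENSMUST00000134066 at E18 and in NR_033324 at 3d and 8w, and at Rpl41 the division between the member and the coding entry differs between replicates of one stage.

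Rabggtb, which encodes the beta subunit of a geranylgeranyl transferase that attaches lipids to Rab proteins, had 6 members, more than any other host. One of them, NR_028094, stood at 3.44, 11 and 4.51 FPKM at E18, under 0.01, 5.76 and 3.33 at 3d, and 1.58, under 0.01 and 3.84 at 8w, and it was called in no comparison. The 6 together summed to 12.2 to 19.4 FPKM at E18, 12.3 to 14.4 at 3d and 2.85 to 7.63 at 8w, with 8w below all other libraries. Rabggtb itself stood at 36.8, 37.2 and 32.4 FPKM at E18, 16.6, 29 and 27.9 at 3d, and 32.9, 36.9 and 34.5 at 8w. Its 8w values lay within the E18 range, unlike the sum of its members. The other hosts had 1 member (936 hosts), 2 (74), 3 (10) or 4 (1).

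Between 3d and 8w, the interval that holds weaning and most postnatal growth, 85 members rose and 246 fell. That is 28.3% of the 1170, with 34.7% called among all 4007 lncRNA transcripts tested, 7.49% higher and 27.2% lower (limma-trend on log2(FPKM + 1), adjusted p under 0.05). Differences are given on that log2 scale, which understates the change of low transcripts. The median difference was -0.25 for members, -0.31 for all tested transcripts and -0.18 for all 11915 tested coding genes. With median centring the split was 138 higher and 122 lower, with quantile normalisation 129 and 129, and by edgeR on recovered fragments 126 and 113. Median centring and quantile normalisation brought the median difference of all tested transcripts to -0.006 and -0.025 by construction, and by edgeR it was -0.066. A more even split follows from such scaling. The excess of falls thus depended on the scaling, and these splits cannot decide whether levels fell. Calls went to 27 of the 308 unstable members (8.77%) and to 304 of the other 862 (35.3%). Unstable members were defined by spread between replicates, which also enters the test (median SE 0.57 against 0.21), so a lower share was built in. The share of members called was 15.6% at mean levels of 0.5 to 1 FPKM and 43.9% at 10 FPKM or more.

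Host genes were mostly called in the same comparison, 60.1% of 966 against 58.5% of all tested coding genes. Among the 1061 pairs, member and host moved with the same sign in 63.6%, against 58.3% for antisense, 67.1% for bidirectional and 72.2% for intron sense-overlapping transcripts and their associated genes. Across the pairs the differences of member and host had a Pearson r of 0.34, a description over pairs that share libraries and in part share fragments. Both were called in 234 pairs, of which 196 moved in the same direction and 38 in opposite directions. Same and opposite pairs were 70 and 40 for antisense, 51 and 8 for bidirectional, and 50 and 2 for intron sense-overlapping transcripts. Of the 38, the member was higher and the host lower at 8w in 13, and the reverse held in 25. Quantile normalisation turned that split to 15 and 12, and median centring gave 9 and 15.

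**Figure D3:**
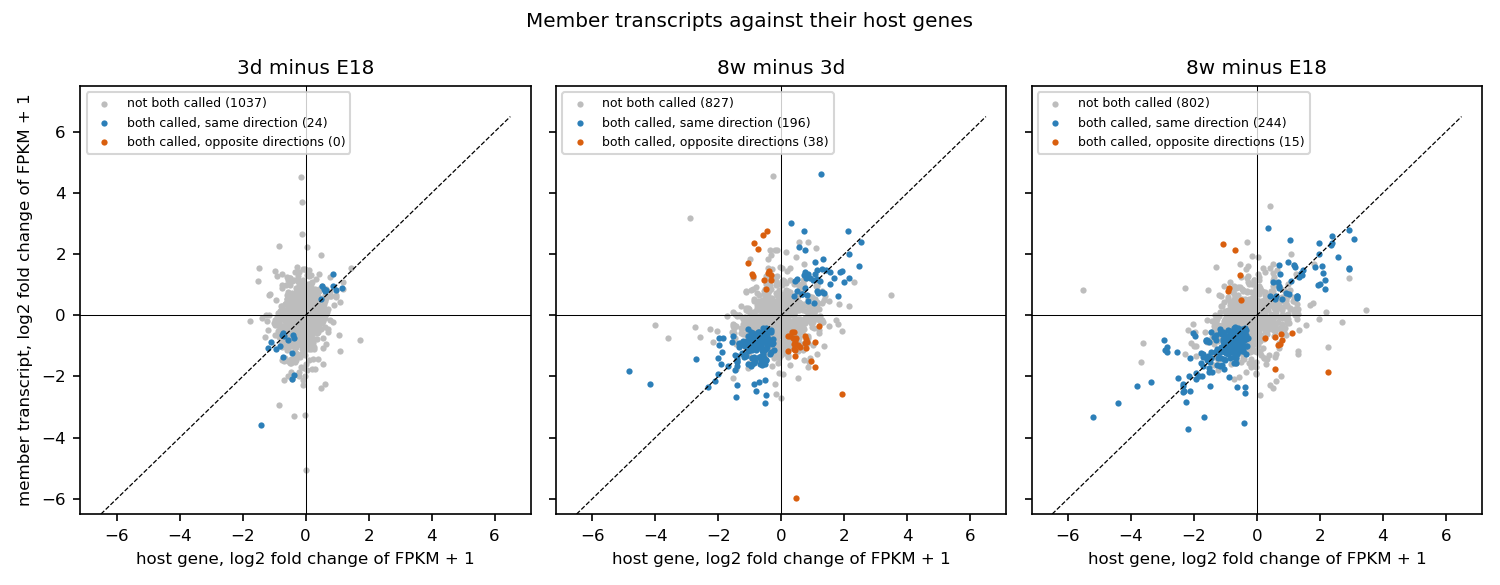
Each point is a member with a tested host, with the log2 difference of the host gene on the x axis and of the member on the y axis (FPKM + 1), for the 3 stage comparisons. Blue points are pairs where both were called in the same direction and orange points pairs called in opposite directions. At 8w against 3d, 196 pairs are blue and 38 orange, and at 3d against E18, 24 are blue and none orange.

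Lpl encodes lipoprotein lipase, which frees fatty acids from circulating triglycerides, and its member uc029wtn.1 had the highest mean of all members, 438.5 FPKM. It stood at 109.1, 173.7 and 131.2 FPKM at E18, 211.8, 250.1 and 232.9 at 3d, and 993.4, 813.1 and 1031 at 8w, with no overlap between stages. Lpl stood at 188.4, 201.8 and 184.5 FPKM at E18, 267.2, 373.0 and 359.3 at 3d, and 1392, 1423 and 1546 at 8w, also without overlap. Between 3d and 8w the member rose by 2.02 ± 0.19 (log2, SE; adjusted p = 0.000202) and the gene by 2.14 ± 0.12 (adjusted p = 2.32e-07), and the test of their difference gave -0.11 ± 0.19 (adjusted p = 0.719).

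Oxct1 encodes the enzyme that activates ketone bodies for oxidation. Its member 2_00009666 stood at 66.0, 93.8 and 75.0 FPKM at E18, 22.7, 33.8 and 32.9 at 3d, and 218.9, 178.8 and 218.4 at 8w. Oxct1 stood at 206.1, 215.1 and 213.5, then 102.1, 144.4 and 138.8, then 568.2, 536.1 and 559.4 FPKM. Both had their lowest libraries at 3d and their highest at 8w, with no overlap. The member fell by 1.37 ± 0.2 from E18 to 3d (adjusted p = 0.0168) and rose by 2.76 ± 0.2 from 3d to 8w (adjusted p = 6.93e-05), and the gene fell by 0.73 and rose by 2.12. The fall of the member was lost when any E18 library was left out.

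Pink1 encodes a kinase that marks damaged mitochondria. Its 389-base member uc029vac.1 stood at 95.7, 72.9 and 83.0 FPKM at E18, 145.8, 157.7 and 185.9 at 3d, and 443.5, 405.3 and 464.8 at 8w, above the gene in every library. Pink1 stood at 18.8, 20.5 and 20.1, then 30.3, 29.3 and 26.3, then 92.7, 117.8 and 115.7 FPKM. The stages did not overlap in either. The member rose by 1.42 ± 0.15 from 3d to 8w (adjusted p = 0.000318) and the gene by 1.88 ± 0.11.

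Pfkp encodes the platelet form of phosphofructokinase, an enzyme of glycolysis. Its member uc007pkb.2 stood at 26.5, 31.6 and 26.7 FPKM at E18, 13.8, 13.5 and 11.6 at 3d, and 3.75, 5.36 and 3.88 at 8w. Pfkp stood at 116.7, 120.4 and 121.6, then 45.5, 58.7 and 51.0, then 30.0, 28.9 and 21.5 FPKM. Each stage lay below the one before it in both. The member fell by 1.4 ± 0.15 from 3d to 8w (adjusted p = 0.000406) and the gene by 0.93 ± 0.13, with a difference of -0.47 ± 0.2 that did not pass the test (adjusted p = 0.135).

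Members at genes of the metabolic lists were few, and these short lists did not hold every gene of such pathways. The lists of fatty acid oxidation and of glycolysis each held 2 members, and that of oxidative phosphorylation and the citrate cycle 3. At 8w against 3d, none of the fatty acid oxidation members was called by limma, edgeR or DESeq2 (0 at an unadjusted limma p under 0.05). In the same comparison 1 of glycolysis fell (Pfkp) and 1 of oxidative phosphorylation and the citrate cycle rose (Oxct1). Members at metabolic genes outside these lists were called in both directions, and the examples given are not a count of them. The member at Lpl was higher, as was its gene. Members at Eci2, Cyc1, Atp5l and Atp5j2 were lower, and all of them are from the pairs called in opposite directions. Their genes rose by 0.35, 0.46, 0.96 and 0.4 in order. The member at Acaa2, a thiolase of fatty acid oxidation, was called only from E18 to 8w (1.76 ± 0.43, adjusted p = 0.0146), while Acaa2 rose in each interval. The member at Etfb, which carries electrons from fatty acid oxidation, stood at 1.63, 0.843 and 0.252 FPKM at E18, 0.774, 0.252 and 0.253 at 3d, and 0.837, 0.716 and 1.08 at 8w, with overlap throughout, and was not called, while Etfb rose by 1.28 ± 0.11 from 3d to 8w. At Chpt1, which completes the synthesis of phosphatidylcholine, member NR_027477 rose by 1.6 ± 0.36 (adjusted p = 0.0102) and the gene by 2.48 ± 0.11.

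Of the remaining lists, those of the sarcomere, imprinted growth genes and the circadian clock held 2 members each and that of the extracellular matrix 3. At 8w against 3d, both imprinted members fell, 1 extracellular matrix member rose, and no sarcomere or clock member was called by limma, edgeR or DESeq2 (0 and 1 at an unadjusted limma p under 0.05). After quantile normalisation or median centring, limma called 1 clock member higher. The lists of cell cycle genes, ribosomal proteins and small nucleolar RNA hosts held no member.

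**Figure D4:**
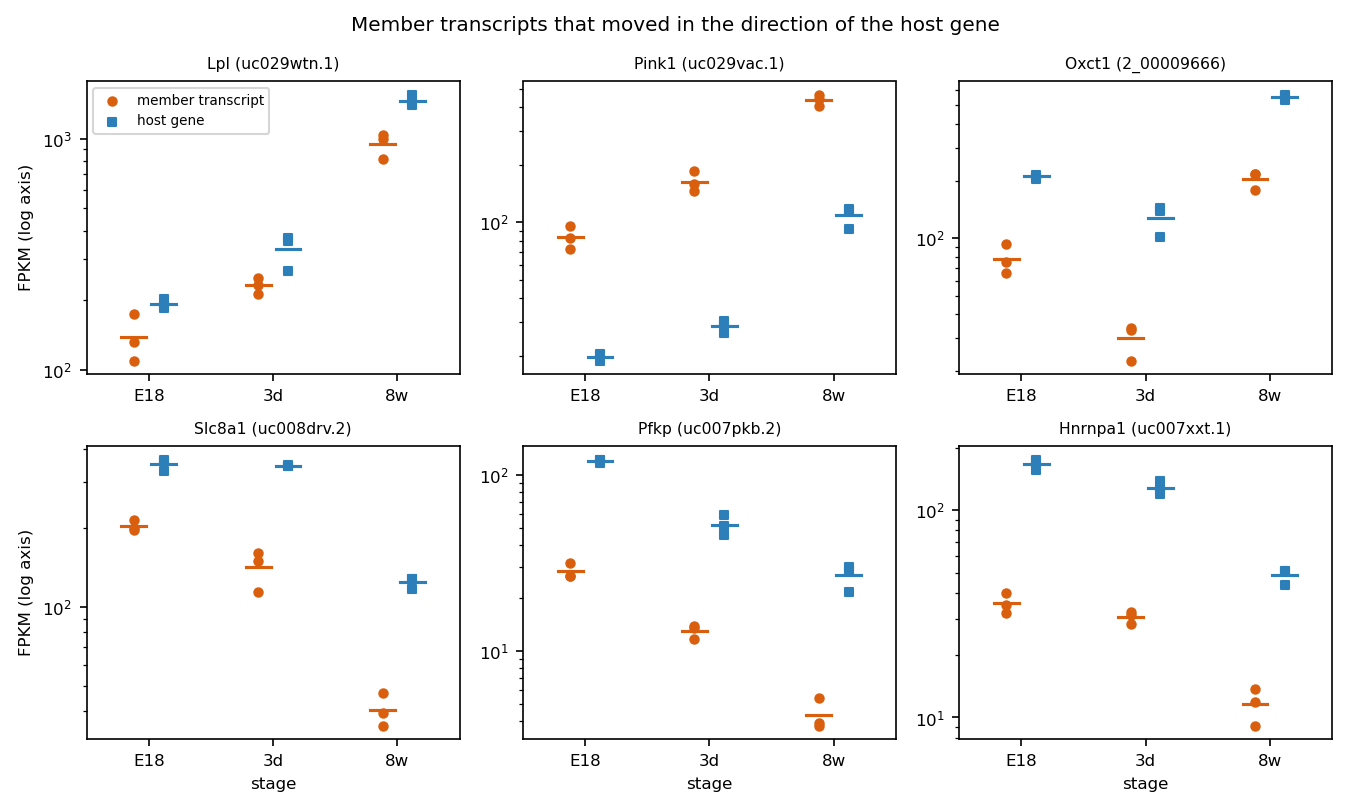
Points give FPKM on a log axis in each library at E18, 3d and 8w, with short lines for the stage means, for 6 members (circles) and their host genes (squares). At Lpl, Pink1 and Oxct1 both are highest at 8w, and at Slc8a1, Pfkp and Hnrnpa1 both are lowest at 8w.

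Calcium handling and ion channel genes hosted 7 members at 5 hosts, of which 1 rose and 3 fell from 3d to 8w, and at 3 of them the ratio to the host changed (1 higher, 2 lower). Over all tested transcripts 7.49% were called higher and 27.2% lower, and over all tested ratios 7.72% and 12.2%, so counts this small are given as a description. Slc8a1 encodes the sodium-calcium exchanger, and its member uc008drv.2, the longest of all at 18529 bases, stood at 195.8, 214.4 and 199.4 FPKM at E18, 114.4, 149.4 and 160.5 at 3d, and 46.8, 35.1 and 39.4 at 8w. Slc8a1 stood at 365.1, 331.0 and 359.4, then 346.2, 349.1 and 344.7, then 128.0, 117.0 and 127.4 FPKM. Both were lowest at 8w without overlap, and the 3d libraries of the member also lay below its E18 libraries, a difference that did not pass (adjusted p = 0.123). From 3d to 8w the member fell by 1.78 ± 0.17 (adjusted p = 0.000202) and the gene by 1.48 ± 0.08 (adjusted p = 1.52e-07).

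Atp2a2 encodes the calcium pump of the sarcoplasmic reticulum. Its member NR_027838 stood at 53.5, 90.3 and 60.7 FPKM at E18, 96.9, 95.8 and 88.3 at 3d, and 130.0, 123.6 and 114.0 at 8w. Atp2a2 stood at 814.8, 970.9 and 864.8, then 1006, 1136 and 1148, then 3839, 3966 and 4081 FPKM. Both were highest at 8w, but the gap between them widened there. Between 3d and 8w the gene rose by 1.85 ± 0.1 (adjusted p = 1.83e-07), the member's 0.38 ± 0.19 did not pass (adjusted p = 0.157), and the ratio of member to host fell by 1.47 ± 0.18 (adjusted p = 0.00113).

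Ryr2 encodes the calcium release channel of the sarcoplasmic reticulum. Its member uc007ple.1 stood at 25.8, 31.3 and 30.0 FPKM at E18, 63.6, 49.8 and 49.3 at 3d, and 32.3, 22.8 and 20.7 at 8w, highest at 3d without overlap. Ryr2 stood at 137.7, 148.2 and 139.7, then 207.2, 211.9 and 219.6, then 285.0, 286.0 and 279.4 FPKM, rising at each stage. From 3d to 8w the member fell by 1.09 ± 0.19 (adjusted p = 0.00342), the gene rose by 0.41 ± 0.08 (adjusted p = 0.000834), and the ratio fell by 1.5 ± 0.2 (adjusted p = 0.00183). The rise of the gene in that interval was lost under quantile normalisation. A second member at Ryr2, uc011ywc.1 of 11225 bases, stood at 26.9, 29.8 and 29.6 FPKM at E18, 89.1, 49.9 and 33.9 at 3d, and 38.4, 51.3 and 45.2 at 8w. It overlapped between 3d and 8w and was not called (adjusted p = 0.564).

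Cacnb2 encodes a beta subunit of the L-type calcium channel. Its member NR_045533 stood at 1.28, 2.15 and 3.57 FPKM at E18, 3.12, 1.18 and 1.17 at 3d, and 8.84, 16.3 and 15.2 at 8w. Cacnb2 stood at 41.9, 43.4 and 42.1, then 53.9, 45.9 and 45.6, then 28.6, 25.3 and 24.9 FPKM. The 8w libraries were the highest for the member and the lowest for the gene. Between 3d and 8w the member rose by 2.38 ± 0.36 (adjusted p = 0.00176), the gene fell by 0.86 ± 0.1 (adjusted p = 2.38e-05), and the ratio rose by 3.24 ± 0.36 (adjusted p = 0.000856), calls that no alternative ended.

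The test of the ratio, which compares member and host within each library, called 159 of 1061 members from 3d to 8w, 66 higher and 93 lower. That is 15.0%, with 19.9% among all 2072 lncRNA transcripts with a tested associated gene (7.72% higher and 12.2% lower), 30.8% among antisense, 19.1% among bidirectional and 18.3% among intron sense-overlapping transcripts. The split was 83 higher and 68 lower with quantile normalisation and 84 and 78 with median centring. Both scaled the lncRNA and coding values separately before the ratio was taken, which shifts every ratio of a library. The median ratio difference of members went from -0.021 to 0.092 with quantile normalisation and 0.101 with median centring. These splits therefore cannot decide whether the excess of lower ratios holds. With a pseudocount of 0.1 the count was 102, 32 higher and 70 lower, and members with a mean of at least 1 FPKM gave 47 and 75. The count was 100 without 8w replicate 3. All 38 pairs called in opposite directions also passed this test. There were 27 such pairs under quantile normalisation, 22 of them shared with the 38, and 24 under median centring, 21 of them shared.

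Gnas encodes the stimulatory G protein alpha subunit at an imprinted locus with several promoters. Its member NR_003258 stood at 452.4, 347.3 and 441.0 FPKM at E18, 445.9, 409.8 and 396.4 at 3d, and 199.4, 187.0 and 178.7 at 8w. Gnas stood at 194.5, 160.5 and 186.3, then 170.5, 131.6 and 107.0, then 163.3, 189.5 and 196.9 FPKM. The member was above the gene in every E18 and 3d library, and the ranges met at 8w. From 3d to 8w the member fell by 1.14 ± 0.14 (adjusted p = 0.000612), the gene rose by 0.44 ± 0.16 (adjusted p = 0.0295, lost under quantile normalisation), and the ratio fell by 1.59 ± 0.18 (adjusted p = 0.000914).

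Ivns1abp encodes a kelch-repeat protein that binds actin. Its member uc007cyp.1 stood at 131.5, 164.9 and 131.6 FPKM at E18, 143.2, 182.0 and 200.8 at 3d, and 76.8, 113.3 and 94.9 at 8w. Ivns1abp stood at 239.8, 282.8 and 236.4, then 252.9, 328.2 and 367.8, then 474.6, 590.2 and 596.0 FPKM. The 8w libraries were the lowest for the member and the highest for the gene. The ratio fell by 1.7 ± 0.13 from 3d to 8w (adjusted p = 0.000187), a call that no alternative ended, whereas the fall of the member alone (-0.88 ± 0.19, adjusted p = 0.00952) was lost under median centring and by edgeR and DESeq2.

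Rnf13 encodes a membrane-bound ubiquitin ligase. Its member uc008phk.2 stood at 2.25, 2.83 and 1.99 FPKM at E18, 3.8, 6.54 and 5.46 at 3d, and 0.58, 0.91 and 1.3 at 8w. Rnf13 stood at 26.2, 30.9 and 29.8, then 20.2, 24.0 and 28.0, then 48.7, 52.7 and 52.5 FPKM. The member was highest at 3d and lowest at 8w, where the gene was highest. Between 3d and 8w the member fell by 1.69 ± 0.21 (adjusted p = 0.000708), the gene rose by 1.07 ± 0.12 and the ratio fell by 2.76 ± 0.2 (adjusted p = 0.000132).

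Genes of muscle structure and mitochondria gave further pairs. At Ablim1, which encodes an actin-binding LIM protein, member uc008hzx.1 stood at 6.31, 6.58 and 6.47 FPKM at E18, 17.6, 12.4 and 11 at 3d, and 7.64, 7.95 and 7.28 at 8w, while Ablim1 stood at 126.4 to 183.9 FPKM at 3d and 199.1 to 212.6 at 8w. The member rose from E18 to 3d (0.95 ± 0.16, adjusted p = 0.0247) and fell from 3d to 8w (-0.74 ± 0.16, adjusted p = 0.00962), whereas the gene rose in both intervals. The first call was lost when any E18 library was left out, the second under both scalings and by edgeR and DESeq2, and the fall of the ratio from 3d to 8w (-1.2 ± 0.13, adjusted p = 0.000828) under none. At Atp5l, subunit g of the ATP synthase, member uc009pes.2 stood at 3.7, 3.06 and 3.37 FPKM at E18, 10.4, 6.47 and 9.97 at 3d, and 2.15, 2.02 and 3.41 at 8w. It was highest at 3d, and the ratio fell by 2.46 ± 0.32 from 3d to 8w (adjusted p = 0.00161) as Atp5l rose by 0.96 ± 0.17, a rise lost under quantile normalisation. At Hibadh, an enzyme of valine breakdown, member uc009byx.1 fell by 0.86 ± 0.12 and the gene rose by 1.08 ± 0.11.

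Ankrd23, a titin-binding ankyrin repeat gene of muscle, rose from 6.19 to 8.53 FPKM at 3d to 77.0, 97.6 and 111.8 FPKM at 8w. Its member uc007aqp.1 stood at 1.46, 0.676 and 0.862 FPKM at 3d and 1.85, 3.13 and 1.6 at 8w. The member did not pass (0.66 ± 0.29, adjusted p = 0.111), and the ratio fell by 2.81 ± 0.38 (adjusted p = 0.00184). Tacc2 encodes a coiled-coil protein of the centrosome and spindle, and its member uc009kah.1 stood at 13.0, 7.48 and 3.37 FPKM at 3d and 0.866, 0 and 0.343 at 8w, while Tacc2 went from 18.7 to 23.2 up to 77.6 to 89.6 FPKM. The ratio fell by 4.5 ± 0.43 (adjusted p = 0.000411), among the largest falls.

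Members whose level was near 0 in a whole stage gave some of the largest differences. The 359-base member at P4ha1, a collagen prolyl hydroxylase gene, stood at 7.48, 21.8 and 7.97 FPKM at E18, under 0.01 in all 3d libraries, and 17.7, 32.1 and 23.4 at 8w. P4ha1 stood at 24.3, 25.2 and 23.2, then 8.72, 8.41 and 8.46, then 23.5, 22.5 and 19.8 FPKM. Both were lowest at 3d without overlap. Member uc029qxh.1 rose from 3d to 8w by 4.63 ± 0.38 (adjusted p = 0.000103) and P4ha1 by 1.26 ± 0.09, where the member's value depends on the pseudocount. The 235-base member at Cyc1, the cytochrome c1 gene, was unstable within E18, at under 0.01, 18.6 and 0.0144 FPKM, and stood at 106.9, 56.9 and 38.8 FPKM at 3d and under 0.01 in every 8w library, while Cyc1 stood at 111.2, 118.5 and 90.1, then 139.1, 142.0 and 157.5 FPKM.

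**Figure D5:**
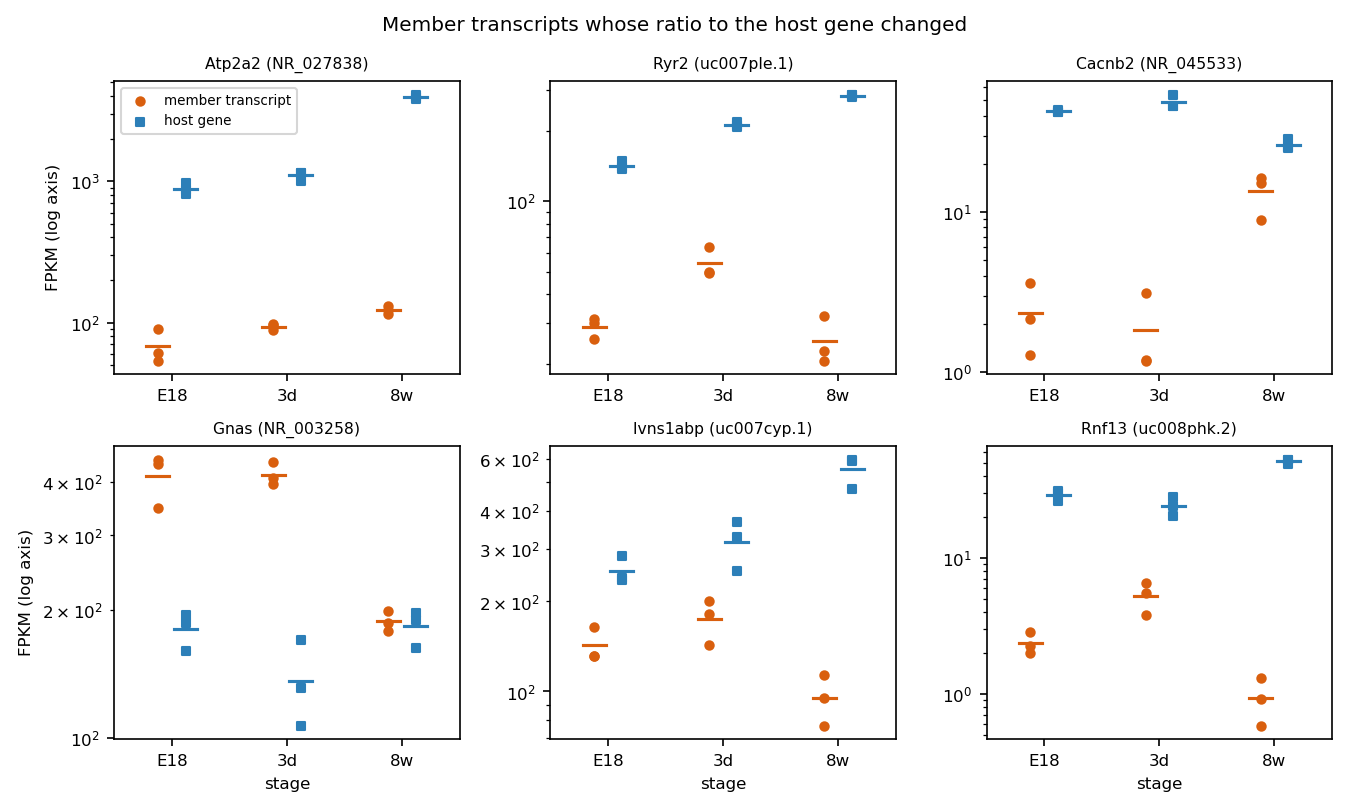
Points give FPKM on a log axis in each library at E18, 3d and 8w, with short lines for the stage means, for 6 members (circles) and their host genes (squares). At 8w the member at Cacnb2 is highest and its gene lowest, and at Ryr2, Ivns1abp and Rnf13 the gene is highest at 8w and the member is not.

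Regulators of splicing were the list with the most hosts, 15 of 30 genes with 1 member each. At 8w against 3d, 5 of the 15 members fell and none rose, beside 27.2% lower and 7.49% higher among all tested transcripts, with a median of -0.67 beside -0.31. At an unadjusted p under 0.05 limma gave 0 higher and 6 lower, edgeR called 1 higher and 2 lower, and DESeq2 called 2 higher and 2 lower. Quantile normalisation and median centring each left 0 higher and 2 lower, so the share that fell depended on the scaling. Among these were the members at Hnrnpa1, Srsf7 and Snrnp70. The ratio to the host rose in 3 and fell in 1. The list did not hold every splicing gene. Outside it, limma called the members at Ddx39b and Rbm25 higher (2.17 and 1.72), and members at further splicing genes were not counted.

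Hnrnpa1 encodes an RNA-binding protein that represses exons, and its member uc007xxt.1 stood at 32.0, 39.8 and 35.0 FPKM at E18, 31.2, 28.3 and 32.3 at 3d, and 11.9, 13.8 and 9.12 at 8w. Hnrnpa1 stood at 172.3, 175.8 and 156.8, then 120.4, 139.0 and 127.2, then 51.1, 43.5 and 51.0 FPKM. Both were lowest at 8w without overlap, by 1.34 ± 0.16 (adjusted p = 0.000671) for the member and 1.39 ± 0.1 for the gene from 3d. Srsf7 encodes a serine and arginine-rich splicing factor, a family known for exons that lead its own RNA into nonsense-mediated decay. Its member NR_036615 stood at 13.4, 12 and 13.4 FPKM at E18, 12.4, 10.9 and 11 at 3d, and 3.84, 6.4 and 4.73 at 8w, whereas Srsf7 stood at 19.1, 28.9 and 27.0, then 4.87, 8.37 and 6.87, then 12.7, 10.3 and 13.3 FPKM. The gene was lowest at 3d, where the member stood near its E18 values. From 3d to 8w the member fell by 1.07 ± 0.17 (adjusted p = 0.00199), Srsf7 rose by 0.79 ± 0.19 (adjusted p = 0.00504) and the ratio fell by 1.86 ± 0.32 (adjusted p = 0.00586).

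Ddx39b, which was outside the list of splicing regulators, encodes an RNA helicase of splicing and mRNA export. Its member uc008chb.2 stood at 0.143, 0.146 and 0.0738 FPKM at E18, under 0.01, 0.672 and 0.133 at 3d, and 3.11, 7.08 and 4.25 at 8w. Ddx39b stood at 100.7, 88.2 and 94.7, then 100, 71.7 and 54.8, then 43.0, 45.0 and 43.2 FPKM. The member was above 1 FPKM only at 8w, where the gene was lowest. Between 3d and 8w the member rose by 2.17 ± 0.27 (adjusted p = 0.000734) and the gene fell by 0.73 ± 0.17 (adjusted p = 0.00378).

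The 4 entries whose bases are printed above passed fewer tests. NR_003546 at Trappc13 stood at 3.85, 2.66 and 4.18 FPKM at E18, 2.27, 2.65 and 2.65 at 3d, and 1.39, 0.959 and 0.865 at 8w, and fell by 0.77 ± 0.17 from 3d to 8w (adjusted p = 0.00845) with no overlap of those stages. That call was lost under both scalings and by edgeR and DESeq2. NR_029460 at Ntng2 stood at 0.293, 0.2 and 0.019 FPKM at 3d and 1.47, 1.52 and 1.92 at 8w, and rose by 1.17 ± 0.15 (adjusted p = 0.000839). Ntng2 was also higher at 8w, at 0.285, under 0.01 and 0.329 FPKM at 3d and 2.31, 2.57 and 2.31 at 8w. Its mean was below the level needed for a test. NR_033586 at Fam120b was above its gene at E18 and 3d, and its ratio to Fam120b fell by 0.9 ± 0.22 (adjusted p = 0.0245) as the gene rose by 0.65 ± 0.13, with the ratio call lost with a pseudocount of 0.1. For ENSMUST00000168978 the ratio to H2-Ke6 fell by 1.1 ± 0.31 (adjusted p = 0.0377), a call lost under 9 alternatives. H2-Ke6, its listed host, stood at 15.2 to 16.7 FPKM at 3d and 27.0 to 41.2 at 8w. The entry was not compared with Slc39a7, whose intron it keeps.

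Some entries stood apart from the gene they are listed with in other ways. NR_027352, listed with Vash2, the vasohibin 2 gene, matched a GENCODE transcript annotated as protein coding. It stood at 17.9, 19.5 and 18.2 FPKM at E18, 8.88, 9.55 and 9.12 at 3d, and 0.28, 0.154 and 0.118 at 8w, lower at each stage without overlap, and fell by 3.11 ± 0.11 from 3d to 8w (adjusted p = 3.24e-06). Vash2 in the coding table reached at most 0.936 FPKM in any library and was not tested. ENSMUST00000122365, listed with the ribosomal protein gene Rpl24, lay wholly in coding exons and stood at 66.9 to 108.7 FPKM against 7.17 to 10.9 FPKM for Rpl24 in the coding table, with no stage called for either. At Plagl1, an imprinted zinc finger gene, the gene fell from 117.6 to 145.1 FPKM at 3d to 3.11 to 3.93 at 8w and its member uc007ekn.1 from 0.885, 6.8 and 2.0 FPKM to under 0.01 in all 8w libraries. The call on that member was lost without the filter on low values.

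Between E18 and 3d, across birth, 16 members rose and 27 fell. That is 3.68% of the 1170, with 3.87% called among all tested lncRNA transcripts (1.65% higher and 2.22% lower), while 26.4% of tested coding genes and 25.4% of the hosts were called. The median difference was -0.08 for members, -0.03 for all tested transcripts and -0.15 for coding genes. The count was 4 to 21 when any 1 library was left out. Without limma's adjustment 234 of the 1170 members had p under 0.05, as did 850 of all 4007 tested transcripts. The ratio to the host was called for 6 of 1061 members (0.566%), 3 higher and 3 lower. Among all tested pairs it was 1.11%, 0.917% higher and 0.193% lower. The sign was shared with the host in 59.2% of pairs, against 48.2% for antisense, 51.3% for bidirectional and 61.7% for intron sense-overlapping transcripts. Both were called in 24 member pairs, all in the same direction. Same and opposite pairs were 5 and 7 for antisense, 2 and 0 for bidirectional, and 2 and 1 for intron sense-overlapping transcripts. No member pair was called in opposite directions by limma, and 19 were opposite with unadjusted p under 0.05 in both. The count tools were not run on pairs.

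Oxct1, Pfkp and Ryr2, described above, were among the pairs called from E18 to 3d. The member at Pfkp fell by 1.07 ± 0.15 (adjusted p = 0.0168) and Pfkp by 1.2 ± 0.13. The calls on all 3 members were lost when any E18 library was left out. The 248-base member uc029wws.1 at Tcf25 was listed at 0 in every E18 and 8w library and at 5.24, 2.92 and 3.27 FPKM at 3d (adjusted p = 0.00109), while Tcf25 stood at 32.9 to 49.9 FPKM throughout. That call was lost by edgeR and by DESeq2. The 147-base member uc029wvi.1 at Pskh1 stood at 34.6, 31.9 and 31.4 FPKM at E18 and was listed at 0 in all 3d libraries (adjusted p = 0.0463), a call lost under 12 alternatives. At 8w it was listed at 0 in 2 libraries and stood at 24.3 FPKM in the other.

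Between E18 and 8w, a comparison that shares its libraries with both others, 73 members rose and 279 fell. That is 30.1% of members, with 34.0% called among all tested transcripts (6.74% higher and 27.3% lower), and the median difference was -0.32 in both sets. The split was 121 and 129 with median centring, 118 and 130 with quantile normalisation and 106 and 109 by edgeR. The ratio to the host was called for 115 of 1061 (10.8%), 52 higher and 63 lower. Among all tested pairs it was 17.6%, 9.31% higher and 8.3% lower. The member split was 51 and 48 with quantile normalisation, 48 and 68 with median centring and 17 and 49 with a pseudocount of 0.1. The count was 70 without E18 replicate 1 and 69 without E18 replicate 3. Of the hosts 65.6% were called, against 65.1% of all tested coding genes. The sign was shared in 73.2% of pairs, against 61.2% for antisense, 67.1% for bidirectional and 75.0% for intron sense-overlapping transcripts. Both were called in 259 member pairs, 244 in the same direction and 15 in opposite directions. The 15 became 10 without E18 replicate 1 and 9 without 8w replicate 3. Same and opposite pairs were 69 and 27 for antisense, 48 and 8 for bidirectional, and 57 and 1 for intron sense-overlapping transcripts.

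At Ndufab1, the mitochondrial acyl carrier protein, the 355-base member uc012ftf.1 stood at 5.75, 4.17 and 4.44 FPKM at E18, 14.0, 5.16 and 8.28 at 3d, and 51.3, 49.0 and 26.4 at 8w, all 8w libraries above the rest. Ndufab1 stood at 444.4 to 447.7 FPKM at E18, 270.4 to 370.0 at 3d and 522.1 to 644.8 at 8w. From E18 to 8w the member rose by 2.85 ± 0.36 (adjusted p = 0.000577), Ndufab1 by 0.34 ± 0.13 (adjusted p = 0.0411, lost under quantile normalisation and when any E18 library was left out) and the ratio by 2.52 ± 0.42 (adjusted p = 0.00598). The 168-base member uc007txt.1 at Myh6, the main adult myosin heavy chain of the mouse heart, rose by 1.9 ± 0.41 (adjusted p = 0.00816) and Myh6 by 2.59 ± 0.2. At Vdac2, a channel of the outer mitochondrial membrane, member DV658818 stood between 174.3 and 241.2 FPKM in all 9 libraries, with every E18 library above every 8w library, overlap of 3d with both, and no call. The histone gene Hist1h3d and its member BC160303 both fell, the member from 22.8, 16.4 and 19.2 FPKM at E18 to 0.211, 1.09 and 0.477 at 8w.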

How the data were processed

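RNA-seq libraries of mouse heart, 3 at each of E18, 3d and 8w, had been trimmed with cutadapt 1.9.1, aligned with HISAT2 2.0.4 and quantified with Cuffdiff on GRCm38/mm10, per the submitters' processing notes; for the annotation and any strand setting no source was at hand. The deposited tables give FPKM and estimated counts per lncRNA transcript and per coding gene. For edgeR and DESeq2 the estimated counts were divided by the commonest low step of each library in the coding table (0.8033 to 1.1157), taken as 1 fragment, and rounded. Those counts entered edgeR and DESeq2 alone, and the main test used FPKM. A table of circular RNAs was not used.

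Members were compared with the host of highest mean FPKM. The test was limma-trend as run in R 4.3.3 by limma 3.58.1, with values as log2(FPKM + 1), all 9 libraries in one fit, stage as the only term, and Benjamini-Hochberg adjustment over all 4007 lncRNA transcripts with a mean of at least 0.5 FPKM, over 11915 coding genes with at least 1 FPKM, or, for the ratio within libraries, over 2072 pairs. All tests were two-sided with a threshold of 0.05, and the procedure was tested on simulated data. edgeR 4.0.16 (quasi-likelihood) and DESeq2 1.42.0 were alternatives. Members and lists were chosen with earlier results of these data known. Transcripts named are the largest rises, falls and ratio changes per comparison, those of highest mean, those of the lists and those of hosts with most members. Others were added after their values were seen. These are members at Hibadh, Srsf7, Eci2, Atp5j2 and Rbm25 and the genes Ppp2r5c and Trappc8 (all from opposite pairs), the member at Rpl24 (matched to GENCODE) and the 4 with printed bases. Correlations of the deviations of same-numbered libraries ran from -0.059 to 0.0675, so the replicate numbers were not taken to pair samples. Some results are not reported here.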

Additional observations from a re-analysis of the deposited data

How the results depend on the processing

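For 3d against E18 the 43 member calls became 27 with a pseudocount of 0.1, 25 without a filter on low values, 27 with only the 2 stages fitted, 23 by edgeR, 71 by DESeq2 and 4 to 21 with a library left out. The 6 ratio calls became 37 without the filter, 3 with quantile normalisation, 2 with median centring and 1 to 6 with a library left out, and the share of shared signs became 55.2% and 54.4% under these scalings. For 8w against 3d the 159 ratio calls became 102 with a pseudocount of 0.1 and 100 to 148 with a library left out, and the 38 opposite pairs 24 with median centring and 26 to 37 with a library left out. For 8w against E18 the 352 member calls became 215 by edgeR, the 115 ratio calls 66 with a pseudocount of 0.1, 181 without the filter and 69 to 102 with a library left out, and the shared signs 68.2% with quantile normalisation, 68.7% with median centring and 70.2% to 73.0% with a library left out. Opposite pairs ranged there from 9 to 18 with a library left out, and for 3d against E18 from 0 to 1, with 1 under quantile normalisation. The cause of these changes was not tested.

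With the replicate number as a block, member calls were 5, 303 and 315 and ratio calls 1, 128 and 90 for 3d to E18, 8w to 3d and 8w to E18 in order. The numbers did not pair the libraries by the check in the processing summary.

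Directions turned for the following. Under median centring Vdac2 (0.05), Ppp2r5c (0.34) and Trappc8 (0.34) turned from E18 to 8w, and under quantile normalisation Trappc8 (0.28) in that comparison, Myh6 (-0.08) from 3d to 8w and Slc8a1 (0.28) from E18 to 3d. The ratio of uc007ekn.1 to Plagl1 from E18 to 8w was -1.02 with a pseudocount of 0.1. From 3d to 8w uc009bwo.2 at Tra2a was 0.35 by edgeR and 0.4 by DESeq2, and uc029rkv.1 at Mdh1 was 0.44 by DESeq2, as ENSMUST00000122365 at Rpl24 was 0.48 from E18 to 8w. Of 140 calls on named transcripts, 127 held with a pseudocount of 0.1, 93 without the filter, 107 with quantile normalisation, 85 by edgeR and 90 by DESeq2. Of members with a mean of 0.5 to 1 FPKM, 15.6% were called for 8w against 3d, and 40.2% of them were unstable within a stage.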
